A study of Mus musculus with 10 samples.

Results

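The genes described here are 32 genes of the oligodendrocyte lineage and of myelin, chosen by symbol, and they were followed as a module and singly through RNA seq of microglia. All 32 are listed in every library, none shares its symbol with another line, and all passed the filter on low counts, so they are 32 of the 18727 genes tested and of the 24421 symbols listed. The cells came from cortex at 9 months of age, in 3 libraries of WT mice, 4 of APP/PS1 mice and 3 of APP/PS1 mice injected with N-AS, with 2 mice pooled per library and ribosomal RNA removed. APP/PS1 mice carry mutant human APP and mutant presenilin-1 transgenes and develop amyloid plaques, and both APP/PS1 groups carry them. N-AS, N-acetyl sphingosine, was injected subcutaneously at 30 mg/kg each day for 8 weeks from 7 months of age, and the study describes the APP/PS1 mice it is compared with as given vehicle, which the labels do not name. Cells were taken from papain-dissociated tissue by density gradient and not by a cell sorter.

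Oligodendrocytes wrap axons in sheets of membrane that are compacted into myelin. They arise from progenitors that carry the receptor Pdgfra and the proteoglycan Cspg4 (NG2), and the factors Olig1, Olig2, Sox8, Sox10, Nkx6-2 and Myrf drive the passage from progenitor to myelinating cell. Microglia are not known to make myelin, but they engulf myelin and its debris, and in bulk RNA fewer oligodendrocytes in a preparation and less RNA per oligodendrocyte cannot be told apart.

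The total count per library lay between 8805804 and 19432075, and the 32 genes together took 0.141% to 0.367% of it. Beside the label microglia, 14 microglia markers were read, and none was at 0 in any library. Their summed level was 867 to 1263 CPM (counts scaled to the library total by TMM factors) in WT, 2769 to 3550 CPM in APP/PS1 and 1696 to 2216 CPM with N-AS. Markers of neurons (10 genes, 3084 to 6181 CPM in sum over all libraries) and astrocytes (10 genes, 2445 to 4152 CPM) were also read in every library. In every WT library both of these sums were above that of the microglia markers. The markers therefore do not show that the cells were mainly microglia, and the word microglia here follows the study's label. WT 3 stood apart for the 32 genes. It was below both other WT libraries for 32 of the 32 genes, with a median of 0.429 times their mean, and it had the most neuron marker counts (6181 CPM) and the fewest endothelial ones (485 CPM in sum over 8 genes, against 955 CPM or more elsewhere). Over all genes tested the 2 measures of likeness did not name the same WT library. By correlation WT 1 resembled the others least (r of log2 CPM across genes 0.930 with WT 2 and 0.933 with WT 3, against 0.954 between WT 2 and WT 3). By a chi-square of the counts per degree of freedom, WT 3 was the furthest. That value was 112 with WT 1 and 127 with WT 2, against 46.1 between WT 1 and WT 2. WT 1 also had the lowest total count and the fewest genes at 0 (566, against 3305 in WT 2 and 1013 in WT 3). The count of genes called is therefore given without each of these libraries. Libraries are numbered 1 to 10, with replicates 1 and 2 of all groups under 1 to 6, and WT 3, APP/PS1 3, APP/PS1 4 and N-AS 3 under 7 to 10. Xist, the RNA that coats the silenced X in females, was counted 33 to 37 times in WT, 5253 to 11188 in APP/PS1 and 7024, 8848 and 29 in N-AS 1, 2 and 3, although the study's methods name male mice. Summed over 4 Y-linked genes, the level was 177 to 197 CPM in WT, 0.619 to 57.0 CPM in APP/PS1 and 31.0 to 176 CPM with N-AS. These reads separate all WT from all APP/PS1 libraries, so what moves with them and what moves with the APP/PS1 label cannot be told apart.

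For 24 of the 32 genes a promoter is given by RefSeq on GRCm38.p6, the build that the submitters' processing notes call mm10; Mbp, Fa2h, Car2, Sox10, Myrf, Olig1, Bcas1 and Evi2a have no entry. The 250 bases before each start were searched on both strands for ACAAAG and AACAAT, which SOX proteins bind, for the E-box CAGCTG, which Olig proteins can bind, and for CTGGCAC and CTGGTAC, which match the MYRF motif; none of the 5 is part of another. Windows are shown for the gene with the largest fall (Opalin), for a pair of myelin glycoproteins (Mag and Mog) and for the gene with the lowest p-value (Sox8), 5′ to 3′ on the gene's own minus strand, with motif matches in capitals.
Opalin, chr19:41077114-41077363: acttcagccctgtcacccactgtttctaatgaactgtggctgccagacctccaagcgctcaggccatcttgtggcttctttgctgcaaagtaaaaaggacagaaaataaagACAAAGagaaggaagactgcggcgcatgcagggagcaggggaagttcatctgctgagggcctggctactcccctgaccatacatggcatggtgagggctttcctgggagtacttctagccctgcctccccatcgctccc
Mag, chr7:30914923-30915172: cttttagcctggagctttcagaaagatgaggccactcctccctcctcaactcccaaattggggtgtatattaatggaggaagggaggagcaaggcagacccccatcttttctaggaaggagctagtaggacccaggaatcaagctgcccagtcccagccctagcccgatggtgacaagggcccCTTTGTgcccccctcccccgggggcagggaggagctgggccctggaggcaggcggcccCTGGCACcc
Mog, chr17:37023399-37023648: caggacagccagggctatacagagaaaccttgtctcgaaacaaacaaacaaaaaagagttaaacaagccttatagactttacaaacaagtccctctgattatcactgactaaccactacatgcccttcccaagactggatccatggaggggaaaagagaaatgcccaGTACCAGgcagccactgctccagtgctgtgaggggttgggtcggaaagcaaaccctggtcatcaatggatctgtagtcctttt
Sox8, chr17:25570687-25570936: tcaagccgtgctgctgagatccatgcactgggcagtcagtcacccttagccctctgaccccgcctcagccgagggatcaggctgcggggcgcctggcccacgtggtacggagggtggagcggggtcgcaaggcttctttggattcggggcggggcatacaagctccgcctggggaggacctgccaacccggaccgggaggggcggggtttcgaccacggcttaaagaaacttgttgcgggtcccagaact
The Opalin window holds ACAAAG 139 bases before the start. The Mag window holds ACAAAG at 67 bases and CTGGCAC at 9 bases before one of 3 annotated starts, the former on the opposite strand. CTGGTAC stands 83 bases before the Mog start, on the opposite strand. In the Sox8 window 0 of the 5 motifs were found, and 250 exon bases of annotated genes were counted there. ACAAAG was found for 7 of the 24 genes (29.2%), against 18.6% of all 27025 genes with a promoter. AACAAT was found for 5 (20.8%, against 10.9%), CAGCTG for 3 (12.5%, against 14.7%), CTGGCAC for 4 (Cnp, Mag, Hapln2 and Nipal4; 16.7%, against 4.8%) and CTGGTAC for Mog only among the 24 (4.2%, against 2.1%). A match of letters is not evidence of binding, and these shares carry no test.

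Per kilobase of exon (GENCODE M21), the most abundant of the 32 genes in WT were Mal at 127 ± 71.9 CPM per kb (SD, n = 3), Apod at 107 ± 58.2, Cnp at 69.0 ± 30.4 and Mbp at 63.0 ± 29.1 CPM per kb. Each step between neighbours in this order was smaller than the larger of their SDs. In APP/PS1 the order at the top was Apod (58.0 ± 9.97 CPM per kb, n = 4), Mbp (56.8 ± 12.9), Mal (53.3 ± 11.6) and Nipal4 (30.7 ± 14.1), and Cnp followed at 21.6 ± 6.84 CPM per kb. The lowest gene in all 3 groups was Enpp6, a choline phosphodiesterase of newly forming oligodendrocytes, at 1.01 ± 0.369 CPM per kb in WT and 0.714 ± 0.163 CPM per kb in APP/PS1.

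The first comparison asks how APP/PS1 microglia differ from WT. In APP/PS1, 10 of the 32 genes were lower and 0 higher by edgeR (quasi-likelihood test, Benjamini-Hochberg adjusted p under 0.05 over all genes), where 0.796% of the genes tested were lower and 2.67% higher. At an unadjusted p under 0.05, 25 of the 32 were lower (8.90% of all genes) and 0 were higher. The median log2 fold change of the 32 was −1.21, beside −0.07 for all genes tested, and 28 of 32 values were below 0. All 4 APP/PS1 libraries lay below all 3 WT libraries for 12 genes (6.73% of all genes), and all 4 lay above for Bcas1 alone among the 32 (8.15%). The module, an average of log2 CPM over the 32 genes, stood at 5.83, 5.94 and 4.75 in WT 1, 2 and 3 and 4.82, 4.88, 4.17 and 4.27 in APP/PS1 1 to 4, a difference of −0.97. WT 3 thus stood below APP/PS1 1 and 2, so the groups overlap in the module. Without WT 3, 24 of the 32 genes were lower at an adjusted p under 0.05 in edgeR and the module difference was −1.35. In that fit 923 of all 19112 genes tested were called in either direction. Without WT 1, WT 2, APP/PS1 3 or APP/PS1 4 the number lower was 3, 3, 3 and 4. Over all genes tested, 319, 362, 299 and 299 were then called in either direction. Each of these omissions made the module difference smaller in size than −0.97, and leaving out APP/PS1 1 or APP/PS1 2 made it larger. Sox8, Car2 and Gpr37 stayed under 0.05 in each of the 10 fits that left out 1 library.

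**Figure D1:**
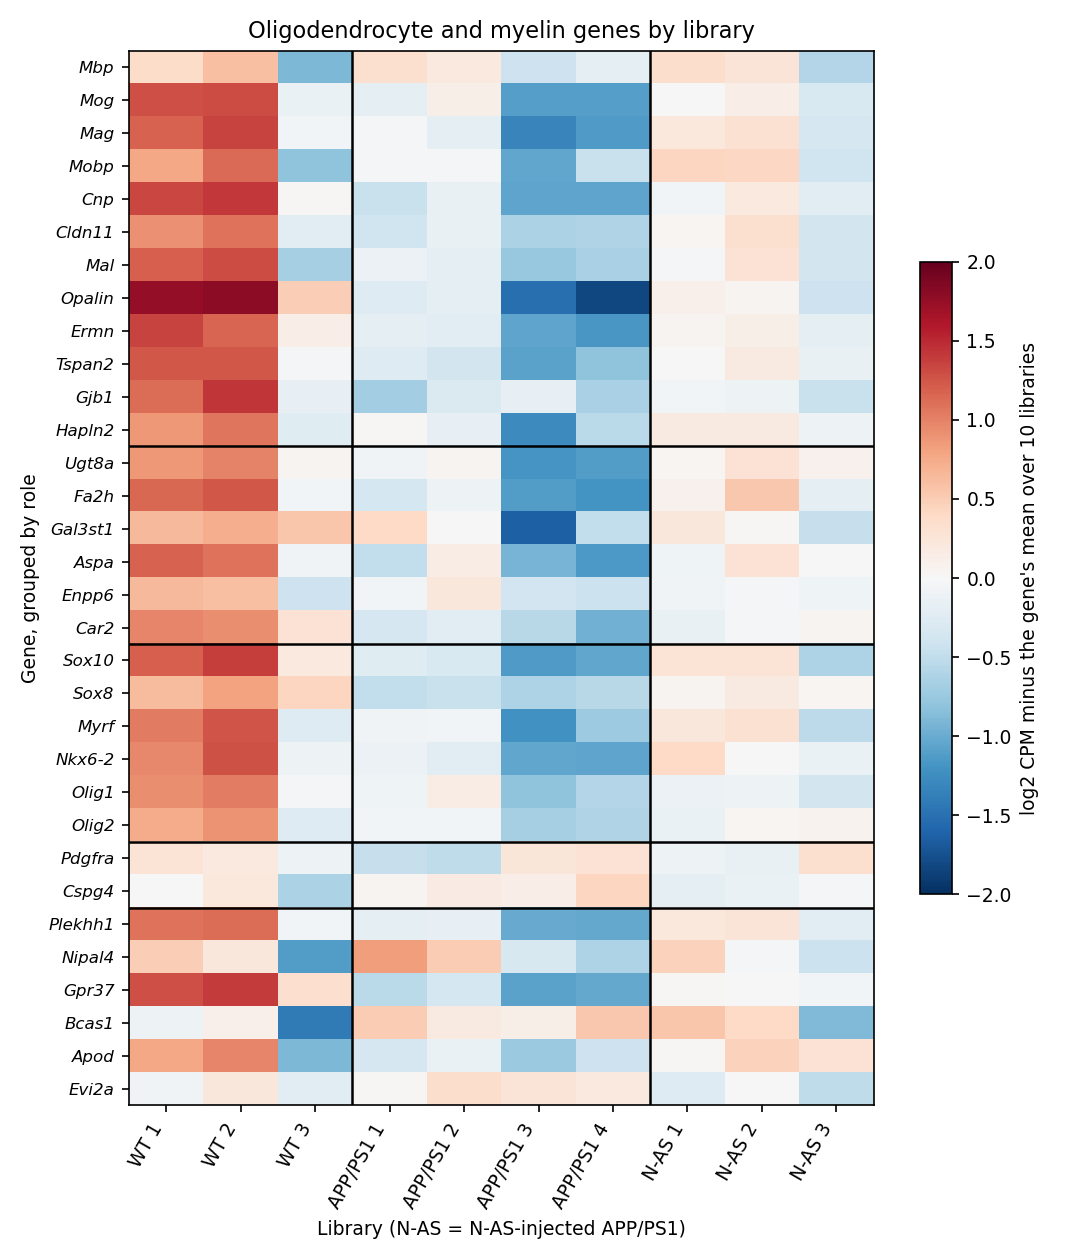
Level of the 32 genes (rows, grouped by role with black lines) in the 10 libraries (columns, grouped by labelled group); colour gives log2 CPM minus the gene's mean over the 10 libraries. WT 1 and WT 2 are red for most rows, APP/PS1 3 and 4 are blue for most rows, WT 3 is lower than the other WT libraries in all 32 rows, and Pdgfra, Cspg4, Nipal4, Bcas1 and Evi2a do not follow the other rows.

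**Figure D2:**
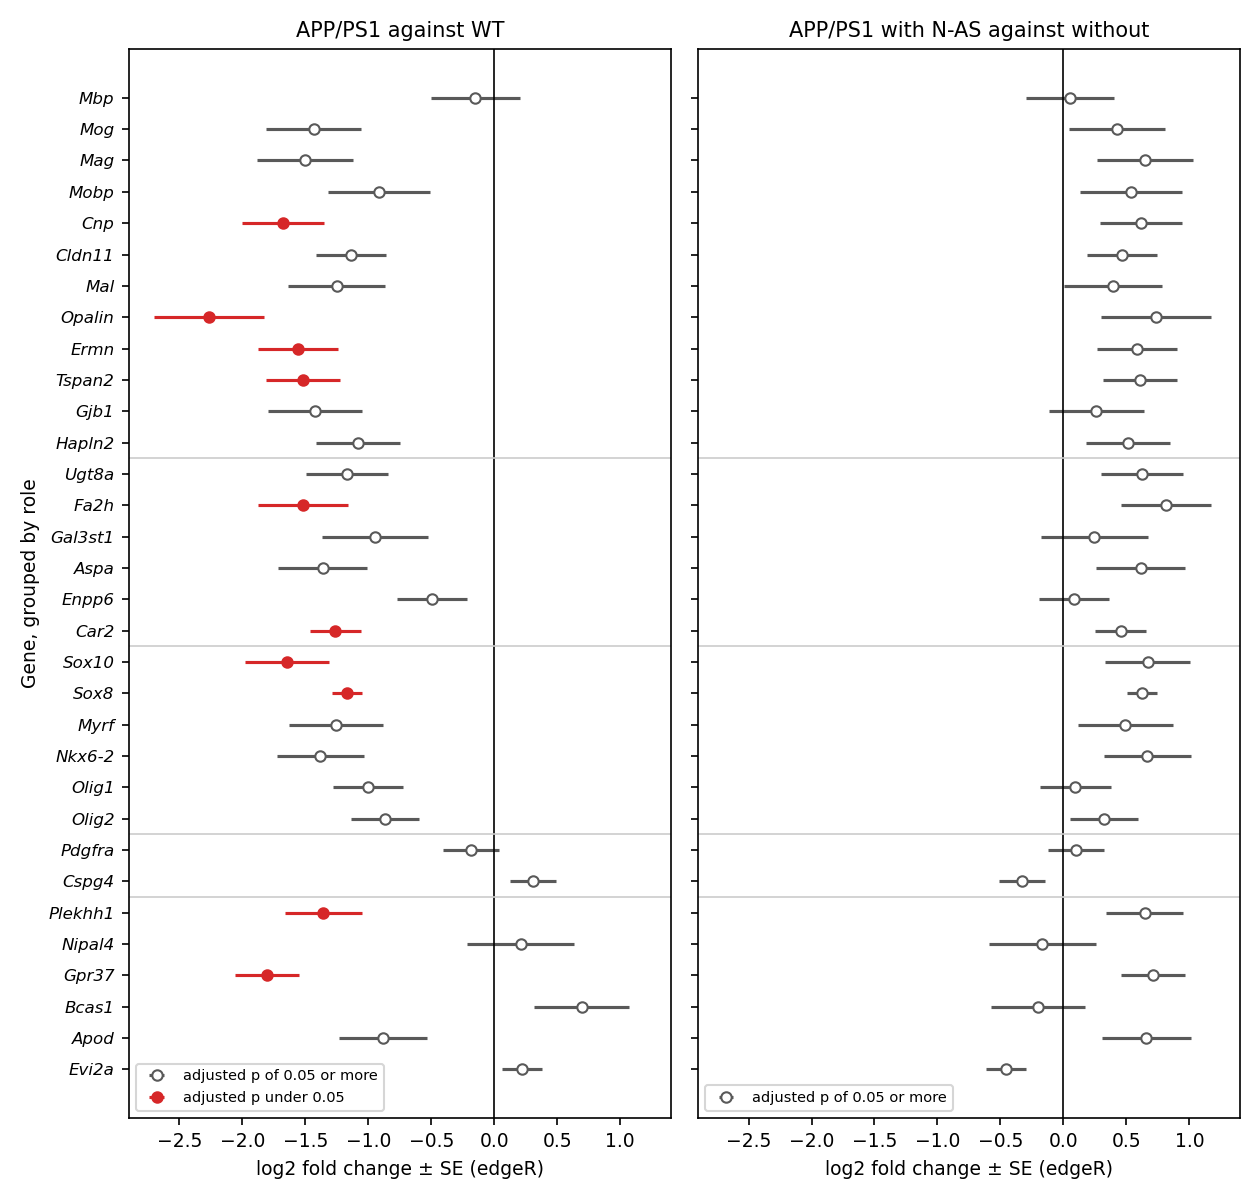
Log2 fold change from edgeR (x axis, points) with a standard error derived from its F statistic (bars) for each of the 32 genes. The left panel is APP/PS1 against WT, and the right panel is N-AS-injected APP/PS1 against APP/PS1 without N-AS. Red points have an adjusted p-value under 0.05 in edgeR. On the left 28 points lie below 0 and 10 are red, and on the right 28 lie above 0 and none is red.

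Among 12 genes for proteins of compact and adaxonal myelin, their junctions and the node matrix, 4 were lower in APP/PS1 and 0 higher at an adjusted p under 0.05, 11 had an unadjusted p under 0.05, and the median log2 fold change was −1.43. Opalin (chr19:41061710-41077113), a sialylated membrane protein of oligodendrocytes, was read at 32.7, 33.6 and 13.6 CPM in WT 1, 2 and 3 and at 8.03, 8.51, 3.28 and 2.62 CPM in APP/PS1 1 to 4. Every APP/PS1 library was below every WT library, and the log2 fold change of −2.27 (standard error, SE, 0.43, with a Benjamini-Hochberg adjusted p = 0.0182 in edgeR) was the largest fall among the 32 genes, on 48 to 103 reads per APP/PS1 library. Cnp (chr11:100574904-100591729), a cyclic nucleotide phosphodiesterase of non-compact myelin, was at 305, 325 and 124 CPM in WT and at 88.8, 109, 58.1 and 58.0 CPM in APP/PS1. The groups did not overlap, though WT 3 came close to the highest APP/PS1 library, and the log2 fold change was −1.68 (SE 0.33, edgeR adjusted p = 0.0194). Ermn, the actin-binding protein ermin, stood at 180, 157 and 77.3 CPM in WT and 62.2, 60.7, 33.7 and 31.2 CPM in APP/PS1 (log2 fold change −1.56, SE 0.32, edgeR adjusted p = 0.0227). Tspan2, a tetraspanin of the myelin membrane, had 144, 144 and 59.7 CPM in WT and 51.0, 47.3, 28.8 and 34.6 CPM in APP/PS1 (log2 fold change −1.52, SE 0.29, edgeR adjusted p = 0.0189). These 4 genes kept their groups apart even with WT 3 included. Of the 10 fits that left out 1 library, Opalin passed in 7 and Cnp, Ermn and Tspan2 in 6 each.

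Mag and Mog, glycoproteins of the inner and outer face of the sheath, had log2 fold changes of −1.50 and −1.43 and adjusted p-values of 0.0609 and 0.0690 in edgeR's test. Mag was at 157, 177 and 66.5 CPM in WT and at 68.1, 61.2, 27.7 and 31.5 CPM in APP/PS1, so that WT 3 fell among the APP/PS1 libraries. Mog was at 43.1, 44.0 and 16.0 CPM in WT and 15.5, 19.1, 8.20 and 8.19 CPM in APP/PS1, with the same overlap through WT 3. The tight junction protein Cldn11 (−1.14, edgeR adjusted p = 0.0518), the connexin Gjb1 (−1.42), the raft proteolipid Mal (−1.25), the link protein Hapln2 (−1.08) and the basic protein Mobp (−0.91) also did not pass. Mal was at 450, 486 and 123 CPM in WT and 181, 171, 116 and 125 CPM in APP/PS1, and Cldn11 at 89.0, 99.8 and 40.6 CPM in WT and 35.4, 42.3, 30.2 and 30.9 CPM in APP/PS1. In both, WT 1 and 2 were well above the rest and WT 3 lay within the APP/PS1 range. Mobp was at 212, 273 and 71.2 CPM in WT and 121, 121, 60.4 and 91.2 CPM in APP/PS1, and Gjb1, with 1.47 to 6.87 CPM over these 7 libraries, was the least abundant of the structural genes. Hapln2 was at 31.6, 36.2 and 14.6 CPM in WT and 17.5, 15.5, 7.04 and 11.9 CPM in APP/PS1. Mbp, the basic protein that holds the membrane sheets together, differed from the rest. It was at 617, 729 and 256 CPM in WT and 594, 549, 360 and 421 CPM in APP/PS1 (log2 fold change −0.15, SE 0.35, edgeR adjusted p = 0.873), and its sign turned under quantile normalization (0.01) and with the replicate block (0.0006). Its highest and lowest libraries were both WT, and the count per symbol does not separate the myelin transcripts of this gene from its golli transcripts, which other cells make.

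Of 6 enzymes of myelin lipids and of oligodendrocyte metabolism, 2 were lower in APP/PS1 at an adjusted p under 0.05, 0 were higher, and the median log2 fold change was −1.21. Car2 (chr3:14886273-14900770), a carbonic anhydrase abundant in oligodendrocytes, was read at 139, 135 and 86.0 CPM in WT and at 56.0, 60.2, 47.9 and 36.1 CPM in APP/PS1, with no overlap. Its log2 fold change was −1.26 (SE 0.20, edgeR adjusted p = 0.00768). Fa2h, which hydroxylates the fatty acids of myelin galactolipids, was at 24.6, 26.1 and 10.7 CPM in WT and 8.63, 10.2, 4.99 and 4.76 CPM in APP/PS1, where WT 3 stood just above APP/PS1 2. The fall of 1.52 on the log2 scale (SE 0.36, edgeR adjusted p = 0.0440) passed the test in 2 of the 10 fits that left out 1 library. The study itself names Fa2h as an example of homeostatic genes lower in APP/PS1 than in WT microglia. Ugt8a, which makes galactosylceramide (−1.17), Gal3st1, which sulfates it (−0.95), and Aspa, which cleaves N-acetylaspartate (−1.36), did not pass the adjustment. Ugt8a was at 48.1, 52.4 and 27.3 CPM in WT and 25.0, 27.4, 11.5 and 12.1 CPM in APP/PS1, and Aspa at 18.5, 17.5 and 7.71 CPM in WT and 5.78, 9.09, 4.24 and 3.62 CPM in APP/PS1. APP/PS1 2 was the library that reached WT 3 in both. Gal3st1 had 10 to 74 reads per library (SE 0.42) and Enpp6 (−0.50, SE 0.28) had 56 to 125. The part of depth in these values was not tested.

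All 6 transcription factors of the lineage were lower at an unadjusted p under 0.05, 2 of them at an adjusted p under 0.05, and the median log2 fold change was −1.21. Sox8 (chr17:25565892-25570686), a SoxE factor, had the smallest standard error of the 32 genes, with 38.03, 43.2 and 33.2 CPM in WT against 17.4, 17.9, 15.9 and 16.7 CPM in APP/PS1. The lowest WT library was above the highest APP/PS1 library by a wide margin, the log2 fold change was −1.17 (SE 0.12, edgeR adjusted p = 0.000718), and its p-value ranked 27 among the 18727 genes. WT 3 was at 0.818 times the mean of the other WT libraries for Sox8, where the median of the 32 genes was 0.429. Sox10 (chr15:79154908-79165240), the other SoxE factor of the list, was at 43.0, 49.2 and 21.4 CPM in WT and 15.9, 15.1, 8.47 and 9.05 CPM in APP/PS1 (log2 fold change −1.65, SE 0.34, edgeR adjusted p = 0.0237). Both Sox genes thus kept the groups apart, Sox10 with the larger fall and the larger error, and Sox10 passed in 6 of the 10 fits that left out 1 library. Myrf, the membrane-bound factor of mature oligodendrocytes (−1.26), Nkx6-2 (−1.38, edgeR adjusted p = 0.0576), Olig1 (−1.0) and Olig2 (−0.86) did not pass. Myrf was at 83.1, 96.0 and 33.8 CPM in WT and 38.4, 38.9, 17.3 and 24.1 CPM in APP/PS1, with WT 3 below APP/PS1 1 and 2. Nkx6-2, at 15.5, 19.1 and 7.28 CPM in WT and 7.25, 6.78, 3.76 and 3.71 CPM in APP/PS1, kept the groups apart by the small gap between WT 3 and APP/PS1 1. Olig2, which specifies the lineage, was at 17.6, 19.8 and 8.73 CPM in WT and 10.1, 10.2, 6.56 and 6.90 CPM in APP/PS1, and Olig1 at 31.4, 33.5 and 16.0 CPM in WT and 15.4, 18.2, 9.36 and 10.9 CPM in APP/PS1, so that both overlapped.

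Neither progenitor surface gene passed the test. Pdgfra, the receptor for platelet-derived growth factor, was at 34.8, 32.9 and 27.0 CPM in WT and 21.0, 20.3, 34.0 and 35.2 CPM in APP/PS1 (log2 fold change −0.19, SE 0.22). APP/PS1 1 and 2 were below every WT library, while APP/PS1 3 and 4 were close to the highest WT library. Cspg4 was at 32.8, 37.6 and 21.1 CPM in WT and 34.0, 36.6, 35.8 and 43.8 CPM in APP/PS1 (log2 fold change 0.30, SE 0.18), and both genes are also made by pericytes or fibroblasts. In the last group of 6 genes enriched in oligodendrocytes, 2 were lower at an adjusted p under 0.05, 0 were higher and the median was −0.34. Gpr37 (chr6:25665878-25690729), an orphan receptor of differentiating oligodendrocytes, was at 107, 115 and 54.7 CPM in WT and 29.8, 34.0, 20.6 and 21.3 CPM in APP/PS1. Its log2 fold change of −1.81 (SE 0.25, edgeR adjusted p = 0.00359) left a gap between the groups. Plekhh1 was at 105, 106 and 47.4 CPM in WT and 42.7, 43.5, 24.5 and 24.0 CPM in APP/PS1 (log2 fold change −1.36, SE 0.31, edgeR adjusted p = 0.0393), and passed in 2 of the 10 fits that left out 1 library.

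Bcas1, Nipal4 and Evi2a went against the other genes. Bcas1, a marker of early myelinating oligodendrocytes, was at 52.9, 60.9 and 21.3 CPM in WT and 81.3, 64.2, 62.0 and 82.7 CPM in APP/PS1, all above WT, with a log2 fold change of 0.69 (SE 0.38, edgeR adjusted p = 0.396). Nipal4 ran from 41.6 to 127 CPM in WT and from 59.1 to 162 CPM in APP/PS1 (log2 fold change 0.21, SE 0.42), and its sign turned without WT 3 (−0.13) and without APP/PS1 1 (−0.07). Evi2a, a membrane protein gene inside an intron of Nf1, was at 24.7, 30.3 and 22.1 CPM in WT and 26.2, 33.1, 30.9 and 29.8 CPM in APP/PS1 (log2 fold change 0.22, SE 0.16). Apod, a lipocalin secreted by oligodendrocytes and other glia, ranged from 105 to 386 CPM in WT and from 117 to 180 CPM in APP/PS1 (log2 fold change −0.88, SE 0.35, edgeR adjusted p = 0.220). In the annotation 11 of the 32 genes share exon bases with another gene, among them Sox8 (329 bases with 2810468N07Rik, opposite strand), Plekhh1 (992 bases with Pigh, opposite strand), Ermn (237 bases with Galnt5, opposite strand), Cnp (154 bases with Dnajc7, opposite strand) and Evi2a (442 bases with Evi2, same strand). The libraries were stranded, but whether reads were counted by strand is not given in the sources used here, so how these reads were assigned is uncertain.

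**Figure D3:**
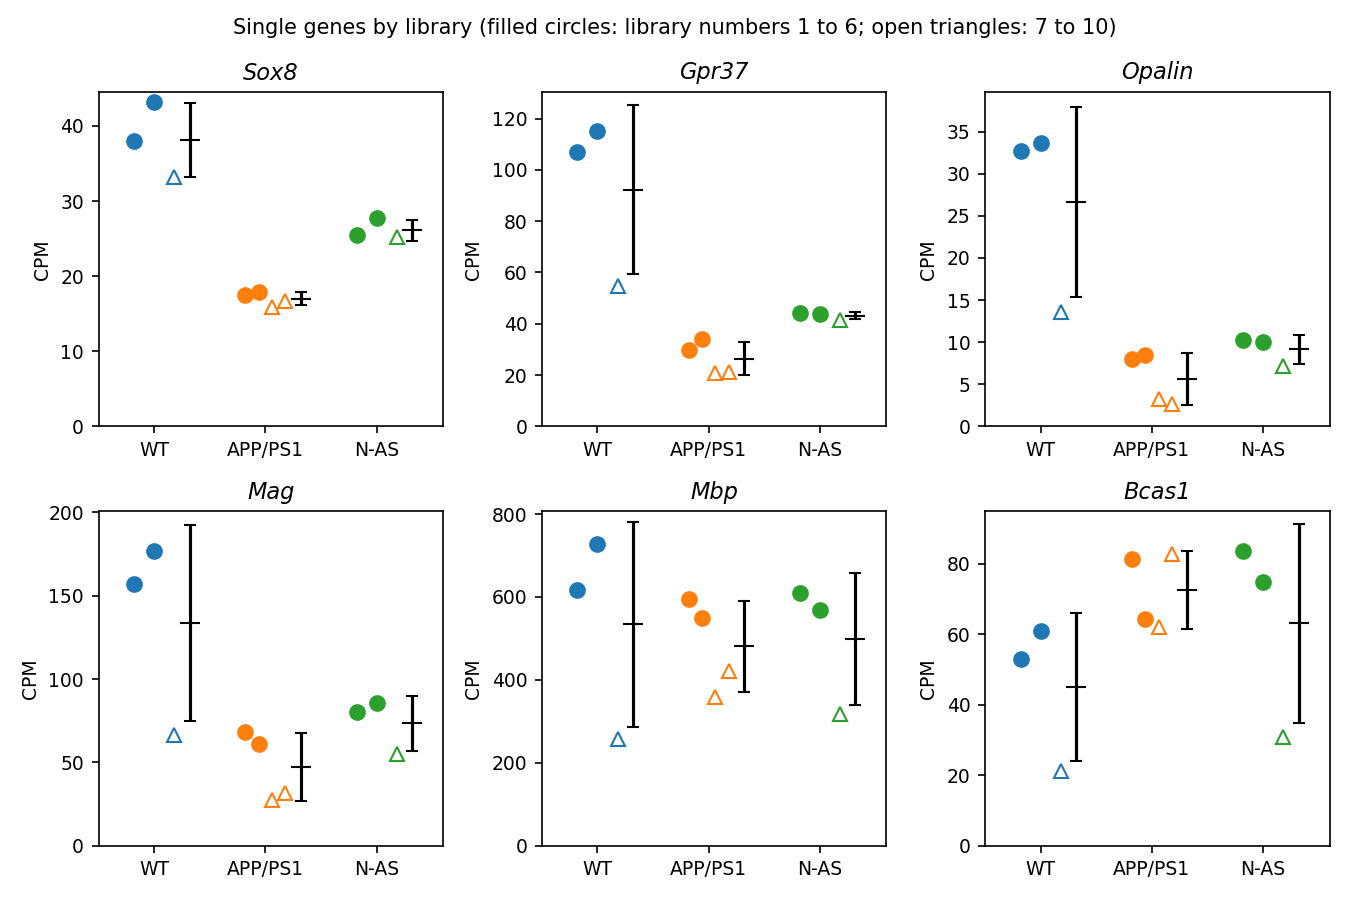
CPM of 6 of the genes in each library (y axis, from 0), by group; filled circles are library numbers 1 to 6, open triangles 7 to 10, and the bar is the mean with its SD (n = 3, 4 and 3). Sox8 and Gpr37 show 3 separate groups with N-AS between APP/PS1 and WT. WT 3 lies well below the other WT libraries for Gpr37, Opalin, Mag, Mbp and Bcas1. The groups overlap for Mag and Mbp, and N-AS overlaps APP/PS1 for Opalin and both other groups for Bcas1.

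The second comparison asks whether N-AS moved these genes in APP/PS1 microglia. At an adjusted p under 0.05, 0 of the 32 genes were called in edgeR, as were 0 of all genes (0% higher and 0% lower). At an unadjusted p under 0.05, 4 of the 32 were higher with N-AS (4.78% of all genes) and 1 was lower (4.05%); DESeq2 called 1 gene after adjustment, Sox8. The mean of the N-AS libraries was above that of APP/PS1 without N-AS for most of the genes: 28 of 32 log2 fold changes were above 0, with a median of 0.50 beside −0.01 for all genes tested. The comparisons share the APP/PS1 libraries, so a low APP/PS1 library enters both. The module was 5.04, 5.10 and 4.71 in N-AS 1, 2 and 3, a difference of 0.42 from APP/PS1, and N-AS 3 was below APP/PS1 1 and 2. With N-AS 3 left out, whose Xist reads were unlike those of the other N-AS libraries, 0 genes passed the adjustment, 5 had an unadjusted p under 0.05, all higher, and the module difference was 0.54. The module difference was smaller than 0.42 without APP/PS1 3, APP/PS1 4, N-AS 1 or N-AS 2, and larger without APP/PS1 1 or APP/PS1 2. Over the 10 fits that left out 1 library, 0 passed the adjustment in each, and the number higher at an unadjusted p under 0.05 ran from 1 without APP/PS1 4 to 12 without WT 3. With the replicate number as a block, 0 passed the adjustment while 15 were higher and 1 lower at an unadjusted p under 0.05. The share of all genes at that unadjusted threshold was not computed for the block or for the fits that left out 1 library. That replicate numbers pair the libraries was not established.

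Sox8 was at 25.4, 27.7 and 25.2 CPM with N-AS, above all 4 APP/PS1 libraries and below all 3 WT libraries. Its log2 fold change from APP/PS1 was 0.62 (SE 0.12, edgeR adjusted p = 0.455), and its p-value ranked 12 among all genes. Gpr37 was at 44.1, 43.9 and 41.7 CPM (log2 fold change 0.71, SE 0.25, edgeR adjusted p = 0.510) and Car2 at 63.4, 69.1 and 72.8 CPM (0.45, SE 0.20, edgeR adjusted p = 0.564). For these 3 genes none of the 3 groups overlapped, with WT above N-AS and N-AS above APP/PS1, an order without overlap held by 0.256% of all genes. Fa2h was at 11.7, 16.0 and 9.68 CPM, a log2 fold change of 0.81 (SE 0.36, edgeR adjusted p = 0.556) with N-AS 3 below APP/PS1 2. Tspan2 (60.8, 69.1 and 54.9 CPM) and Apod (200, 269 and 239 CPM) were also higher in every N-AS than in every APP/PS1 library, which makes 5 of 32 genes where 6.26% of all genes did so. The reverse held for Cspg4 (28.5, 29.6 and 31.5 CPM with N-AS) and Evi2a (21.5, 25.7 and 18.2 CPM), 2 of 32 where 6.46% of all genes did so. Evi2a was the gene with an unadjusted p under 0.05 in that direction (log2 fold change −0.46, SE 0.16, edgeR adjusted p = 0.509).

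Described by role, the median log2 fold change with N-AS was 0.52 for the 12 structural genes, 0.53 for the 6 enzymes, 0.56 for the 6 transcription factors, −0.12 for the 2 progenitor genes and 0.24 for the 6 other genes. Opalin was at 10.3, 9.97 and 7.17 CPM with N-AS (0.73, SE 0.44), Sox10 at 22.6, 22.6 and 12.2 CPM (0.67, SE 0.34) and Mag at 80.2, 85.5 and 54.7 CPM (0.64, SE 0.38). N-AS 1 and 2 were above all APP/PS1 libraries for each of these genes, and N-AS 3 lay among them. Cnp was at 117, 139 and 105 CPM (0.62, SE 0.33), Ermn at 73.3, 76.1 and 61.3 CPM (0.58, SE 0.31) and Plekhh1 at 56.5, 58.9 and 42.0 CPM (0.64, SE 0.31), again with N-AS 1 and 2 above APP/PS1 and N-AS 3 below its highest library. Ugt8a was at 27.0, 32.3 and 28.1 CPM (0.62, SE 0.32) and Nkx6-2 at 10.3, 7.85 and 7.17 CPM (0.67, SE 0.35), each with 1 N-AS library within the APP/PS1 range. Mbp was at 609, 569 and 317 CPM (0.05, SE 0.35), with no separation from APP/PS1. Olig1 (0.09), Enpp6 (0.08) and Gal3st1 (0.25) had values whose sign turned when only library numbers 1 to 6 were used (−0.15, −0.15 and −0.09).

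Between N-AS-injected APP/PS1 and WT, 0 of the 32 genes were called at an adjusted p under 0.05 in edgeR (0.176% of all genes were higher and 0.0107% lower), and 12 were lower at an unadjusted p under 0.05 (3.09% of all genes). DESeq2 called 2 after adjustment, Sox8 and Gpr37, both lower. Without WT 3 the number called in edgeR was 1. Over all genes tested, DESeq2 called 187 in either direction, and edgeR without WT 3 called 57. The median log2 fold change was −0.71, beside −0.04 for all genes, and 30 of 32 values were below 0. Every N-AS library was below every WT library for 7 of the 32 genes, where this held for 3.91% of all genes. The lowest adjusted p-values in edgeR's test were 0.203 for Sox8 (log2 fold change −0.55, SE 0.13), 0.253 for Gpr37 (−1.09, SE 0.27) and 0.331 for Car2 (−0.81, SE 0.22). The N-AS mean lay between the APP/PS1 and WT means for 28 of the 32 genes, the exceptions being Cspg4, Nipal4, Bcas1 and Evi2a. The share of all genes with the N-AS mean in that place was not computed, so the count has no background.

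The levels also moved with the library numbers. Within numbers 1 to 6 the module differed by −1.04 between APP/PS1 and WT and by 0.22 between N-AS and APP/PS1, and within 7 to 10, which hold 1 WT and 1 N-AS library, by −0.53 and 0.49. In the 7 to 10 set N-AS 3 had 29 Xist reads and 176 CPM of Y-linked genes. APP/PS1 3 and 4 had 8477 and 11188 Xist reads and 0.888 and 0.619 CPM of Y-linked genes. N-AS and these reads therefore cannot be told apart in that set. N-AS against WT differed by −0.81 within 1 to 6 and by −0.04 within 7 to 10. In a fit of numbers 1 to 6 alone, 25 of the 32 genes were lower in APP/PS1 than in WT and 19 lower with N-AS than in WT at an adjusted p under 0.05 in edgeR, with 0 called between N-AS and APP/PS1. Of all 18003 genes tested in that fit, 937, 437 and 11 were called in either direction in these 3 comparisons. In the 7 to 10 set WT 3 was above the mean of the APP/PS1 libraries for 23 genes, and in the 1 to 6 set the WT mean was above for 28. No test was run in the smaller set, where WT and N-AS have 1 library each. WT 1 and WT 2 were both above every library of the other groups for 27 of the 32 genes. This count leaves out WT 3, and the share of all genes that did so was not computed. The highest library was WT 2 for 22 genes, and the lowest was APP/PS1 3 for 14 and APP/PS1 4 for 10.

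Outside the list, the other lineage genes were split by stage. Of 38 other mature oligodendrocyte genes, 12 were lower in APP/PS1 than in WT and 0 higher at an adjusted p under 0.05 in edgeR, with a median log2 fold change of −0.81. That number was 5, 2, 22, 2 and 3 without WT 1, WT 2, WT 3, APP/PS1 3 and APP/PS1 4, and 7 without N-AS 1 or N-AS 2. The lowest p-values belonged to Tubb4a, a tubulin of oligodendrocytes and neurons (−1.02), S1pr5, a sphingosine phosphate receptor (−1.75), and Tmeff2 (−0.75). S1pr5 was at 10.7, 13.6 and 6.51 CPM in WT, 3.71, 3.88, 2.32 and 2.33 CPM in APP/PS1 and 4.81, 6.31 and 3.99 CPM with N-AS, and its groups did not overlap between WT and APP/PS1. Of 18 other progenitor genes, 1 was lower (Bcan, a proteoglycan core protein, −0.93), 1 was higher (Chst11, a chondroitin sulfotransferase, 0.53) and the median was −0.12, and leaving out 1 library gave 0 to 2 calls. Of 14 other transcription factors 1 was lower (Nkx2-2, −1.75, at 0.744 to 5.23 CPM) and 0 higher, where leaving out 1 library gave 3 calls for WT 3 and 0 for each of the others. Of 25 genes of lipid synthesis used by myelin 0 passed in either direction in edgeR, where DESeq2 called 2 lower, and 4 had an unadjusted p under 0.05, all lower. Between N-AS and APP/PS1, 0 genes of these 4 lists passed the adjustment in edgeR, with 5, 1, 1 and 1 higher and 0, 2, 0 and 0 lower at an unadjusted p under 0.05.

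**Figure D4:**
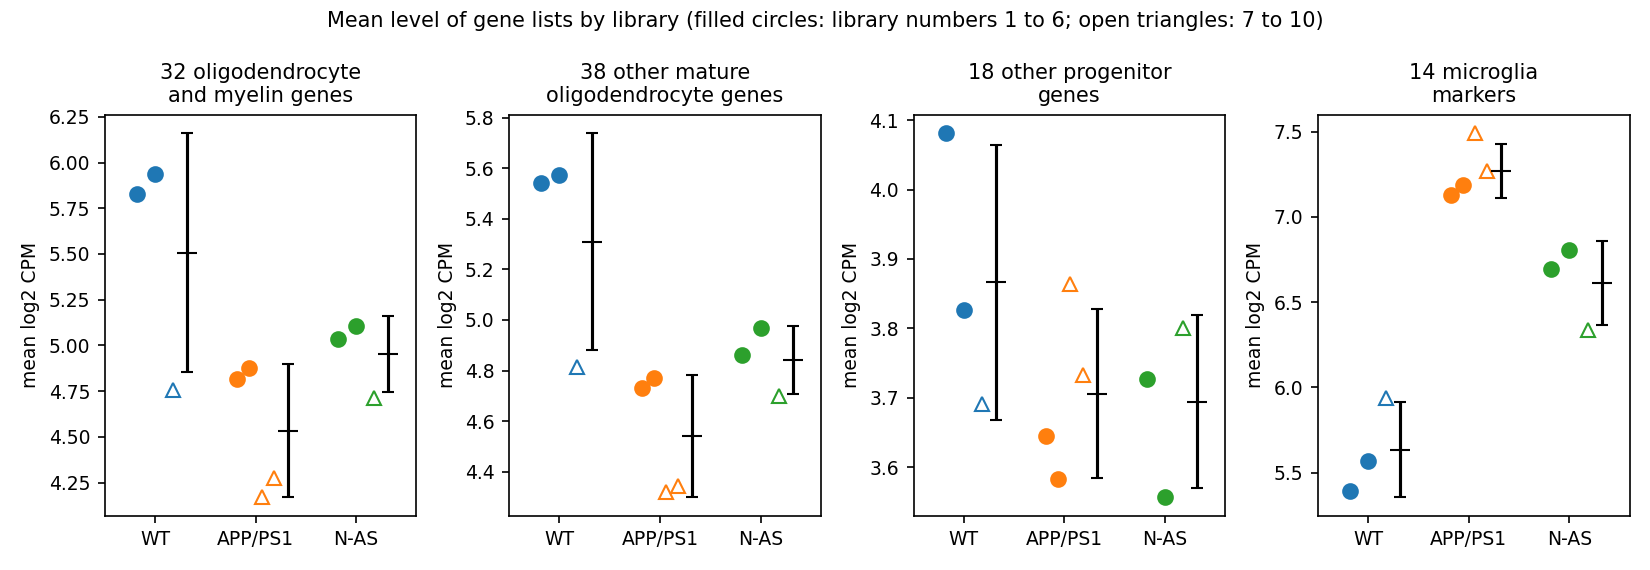
Mean log2 CPM (y axis; the range differs by panel and does not start at 0) of the 32 genes, of 38 other mature oligodendrocyte genes, of 18 other progenitor genes and of 14 microglia markers in each library, by group; filled circles are library numbers 1 to 6, open triangles 7 to 10, and the bar is the mean with its SD. The first 2 panels share the order WT, N-AS, APP/PS1 of the means and the low place of WT 3, and the microglia panel has the opposite order of means, with 5.63 in WT, 7.27 in APP/PS1 and 6.61 with N-AS.

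Markers of other cells moved beside these genes. Of the 14 microglia markers, 12 were higher in APP/PS1 than in WT and 0 lower at an adjusted p under 0.05 in edgeR, with a median log2 fold change of 1.49; the lowest p-values belonged to the receptor Trem2 (3.36) and to C1qc and C1qb (2.27 and 2.39), subunits of complement C1q. Their mean log2 CPM was 5.63 ± 0.28 (SD, n = 3) in WT, 7.27 ± 0.16 (n = 4) in APP/PS1 and 6.61 ± 0.25 (n = 3) with N-AS, so this list moved opposite to the 32 genes in all 3 group means. Its part in the results was not tested. Of 10 neuron markers, 0 passed in either direction (median −0.26), and of 10 astrocyte markers 1 was higher, Gfap, the filament protein of reactive astrocytes, at 10.9 to 17.6 CPM in WT and 499 to 923 CPM in APP/PS1, while the median of the list was −0.15. In the fit of library numbers 1 to 6 alone, 5 astrocyte markers were lower and 2 neuron markers higher in APP/PS1 at an adjusted p under 0.05 in edgeR. Endothelial (8 genes, 485 to 1345 CPM in sum), pericyte (6 genes, 257 to 462 CPM) and fibroblast markers (6 genes, 109 to 519 CPM) had 0 calls each among all 10 libraries and 1, 0 and 2 lower in the fit of library numbers 1 to 6. Of 6 Schwann cell markers, which would show myelin of peripheral nerve, 4 passed the filter and 0 were called, with 77.0 to 114 CPM in sum.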

How the data were processed

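Reads were aligned and counted by the authors, and the deposited values are raw counts per gene symbol without normalization; the submitters' processing notes name TopHat, edgeR and mm10, without versions. The 24481 lines were summed to 24421 symbols, 43 symbols on 103 lines being repeated. In R 4.3.3 with edgeR 4.0.16, genes were kept by filterByExpr (18727), scaled by TMM and tested by the quasi-likelihood test in 1 model of 3 groups, with Benjamini-Hochberg adjustment over all genes and a threshold of 0.05. The prior count for log2 CPM was 2. Each SE of a log2 fold change was derived, as its absolute value divided by the square root of the F statistic of the edgeR test. P-values measure the spread between these libraries, each a pool of 2 mice. The 32 genes, the other lists and the tests were chosen with earlier results of these data known. The rule for named genes took all 32 genes, at most the 3 genes of lowest p among those called in each other list, and Xist as a check on the labels, and 1 gene it names is not reported here. Deviations from the group means were correlated between libraries of the same replicate number. For N-AS and APP/PS1 r was 0.278, 0.142 and 0.309. It was −0.485, 0.441 and −0.01 for APP/PS1 and WT, and −0.136, 0.348 and 0.24 for N-AS and WT. The labels state no pairing, so these values do not establish that replicate numbers pair the libraries. Alternatives were DESeq2 1.42.0, limma 3.58.1 (voom, quantile normalization), other scalings and filters, the block, the 2 compared groups alone, library numbers 1 to 6, and leaving out each library. Scripts were tested on simulated counts.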

Additional observations from a re-analysis of the deposited data

How the results depend on the processing

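All 10 genes called lower in APP/PS1 than in WT were also called in DESeq2, with total counts, upper-quartile or median-of-ratios factors, without the filter, with at least 10 counts in every library and with the replicate block, while voom with quantile normalization kept 9 and the 2 groups alone 5. The number of the 32 genes called was 21 in DESeq2, 17 with total counts, 5 with only the 2 groups, 25 with library numbers 1 to 6 and 3 to 24 when 1 library was left out; with the set of library numbers as a covariate, an alternative chosen after seeing the data like the set 7 to 10 alone, it was 19. With the replicate block it was 14 for APP/PS1 against WT, where the correlation of same-numbered libraries changed sign, and 0 for both N-AS comparisons. Over all genes tested, those called in either direction in APP/PS1 against WT were 1362 in DESeq2, 571 with total counts and 410 with only the 2 groups. They were 1055 with the covariate, 326 with the block and 299 to 923 when 1 library was left out. N-AS against APP/PS1 had 1 call in DESeq2 and 0 otherwise, and N-AS against WT had 2 in DESeq2, 19 in numbers 1 to 6, 3 with the covariate and 0 to 1 when 1 library was left out. Over all genes, DESeq2 called 79 between N-AS and APP/PS1. Between N-AS and WT it called 187, where numbers 1 to 6 gave 437 and the covariate 64. Within numbers 7 to 10 the module difference was −0.53 for APP/PS1 minus WT and −0.039 for N-AS minus WT. The cause of these changes was not tested.

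The sign turned only for values that had not passed the test. For APP/PS1 against WT, the log2 fold change of Mbp was 0.012 in voom, 0.00060 with the block and 0.090 with the covariate, and Cspg4 was −0.032 in numbers 1 to 6. Leaving out 1 library gave −0.48 to 0.15 for Mbp and −0.13 to 0.52 for Nipal4. For N-AS against APP/PS1, Mbp was −0.024 in voom, −0.038 with the block and −0.13 with the covariate, and in numbers 1 to 6 Gal3st1 was −0.094, Enpp6 −0.15, Olig1 −0.15 and Bcas1 0.11. Leaving out 1 library gave −0.12 to 0.30 for Mbp, −0.042 to 0.57 for Gal3st1, −0.019 to 0.23 for Enpp6, −0.047 to 0.27 for Olig1, −0.050 to 0.23 for Pdgfra, −0.43 to 0.12 for Nipal4 and −0.45 to 0.14 for Bcas1. For N-AS against WT, Cspg4 was 0.0024 without the filter and Nipal4 −0.16 in numbers 1 to 6, and leaving out 1 library gave −0.42 to 0.20 for Mbp, −0.76 to 0.024 for Mobp, −0.22 to 0.0075 for Pdgfra, −0.23 to 0.17 for Cspg4, −0.29 to 0.35 for Nipal4 and −0.61 to 0.11 for Apod. Depth limits Gal3st1 (10 to 74 reads per library) and Gjb1 (17 to 111) most.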
